A study of Homo sapiens with 15 samples.

Results

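The genes described here belong to the unfolded protein response and to the ATF4 stress response of A549 cells, a human lung adenocarcinoma cell line. They were the 38 genes of a fixed list of chaperones, stress sensors, transcription factors and their target genes, and a probe belonged to the list when its gene name on the array was one of the 38. The list held 61 of the 41000 probes and 38 of the 30484 gene names on the array. All 61 probes passed the filter on dim spots, which 31330 probes and 22992 gene names passed in all. The list was not drawn from the measured values, but it was drawn up when results of these arrays were already known.

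Proteins that enter the endoplasmic reticulum (ER) are folded there by chaperones such as HSPA5 and by disulfide isomerases of the PDIA family. When unfolded proteins build up, the membrane sensors ERN1 (IRE1), EIF2AK3 (PERK) and ATF6 start the unfolded protein response, in which spliced XBP1 and cleaved ATF6 induce chaperones and degradation factors. PERK and related kinases phosphorylate eIF2, which slows translation in general but favors ATF4, a transcription factor that induces amino acid synthesis and transport genes and DDIT3 (CHOP). Some lung cancers are known to depend on the serine synthesis branch of this program.

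The arrays compared, for each of 5 miRNAs (miR-766, miR-629*, miR-181d, miR-574-3p and miR-565), A549 cells transfected with the synthetic miRNA, here called mimic cells, with A549 cells transfected with its antagomir, an LNA-modified oligonucleotide that blocks the miRNA. The oligonucleotides were used at 20 nM and RNA was taken after 24 h. The labels give 3 replicate arrays for each miRNA, 15 in all, without saying whether these were separate transfections, so that p values may measure technical spread only. On every array the mimic cells carried Cy5 and the antagomir cells Cy3, and no cells without an oligonucleotide were on these arrays. A shift seen with all 5 miRNAs can therefore belong to the mimic, to the antagomir or to the dye, and these cannot be told apart. A dye effect shared by all arrays drops out of a difference between miRNAs, but a slide effect does not. Slide 1 held every miR-181d array, slide 3 every miR-629* array and slide 4 every miR-766 array. Only miR-565 (slides 1 and 2) and miR-574-3p (slides 2 and 3) were divided. Differences between miRNAs, in ratios or in 1 channel, therefore cannot be fully told apart from differences between slides.

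The arrays detected 69.6% to 73.7% of probes well above background in antagomir cells and 69.0% to 76.2% in mimic cells. Replicate 1 of miR-565 stood apart. The SD of its log2 ratios over all tested probes was 0.958, against 0.296 to 0.551 on the other 14 arrays, and it was the only array with a smaller share of probes above background in mimic cells than in antagomir cells. For the 38 stress genes its SD was 0.438, against 0.129 to 0.274. Counts of genes at an adjusted p under 0.05 are therefore given with and without it. Some epithelial and A549 markers were bright (KRT8 at 41150 to 104000 and ALDH1A1 at 65390 to 185900 signal units over both channels). Others were dim, namely TACSTD1 (117.5 to 197.3 units), SFTPC (54.16 to 144.9 units) and TITF1 (28.11 to 78.78 units). PTPRC, PECAM1 and COL3A1, markers of leukocytes, endothelium and fibroblasts, were not above background on any of the 15 arrays. Other markers of such cells were above background on all 15 arrays, namely CD14 (118.6 to 292.1 units), CD3E (20.43 to 57.43 units) and COL1A1 (26.98 to 57.62 units). So were ALB of liver (57.15 to 104.3 units) and GFAP of brain (35.25 to 117.3 units). VWF was above it on 9 antagomir and 15 mimic channels. The part of these markers in the results was not tested. A CDKN2A probe was above background on all 15 arrays, at 300.9 to 554.6 units, although A549 is known to lack that locus.

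The mature sequences of 3 of the 5 transfected miRNAs are given, from RefSeq (GRCh38.p14), to show which reagents were compared, with the seed, bases 2 to 8, in capitals. No seed is the same in any pair of these 3, and miR-565 and miR-766 are named only.
miR-181d (chr19:13874910-13874932, plus strand): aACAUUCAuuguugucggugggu
miR-574-3p (chr4:38868092-38868113, plus strand): cACGCUCAugcacacacccaca
miR-629* (chr15:70079387-70079408, minus strand): gUUCUCCCaacguaagcccagc

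The promoters of the stress genes were searched for the elements through which the stress factors are known to act. RefSeq promoter windows, from 250 bases before to 50 bases after a transcript start (GRCh38.p14), were found for 35 of the 38 genes, in 53 windows. The ER stress element ERSE, CCAAT and CCACG separated by 9 bases on either strand, lay in 15.1% of these windows and in 0.0769% of all 35116 windows. It was found in CALR, CANX, HSP90B1, HSPA5, PDIA6 and XBP1. The CARE element bound by ATF4 and C/EBP factors, written here as TGATG, any base and AA, lay in 11.3% of the stress gene windows and in 3.62% of all windows, namely in ASNS, CEBPG, CHAC1, CREB3L2, HERPUD1 and SLC3A2. HERPUD1 also held ERSE-II, ATTGG and CCACG separated by 1 base, which 0.0541% of all windows held. UPRE (TGACGTGG) was in none of the stress gene windows and in 0.729% of all, and CRE (TGACGTCA), which begins with the same TGACG, was in CREB3L2 and PPP1R15A and in 1.85% of all. ERSE and ERSE-II share the letters CCACG. A match describes the letters only, not a site in use or a cause. The 4 stretches below show the ERSE of the best known target, HSPA5, that of PDIA6, the ERSE-II of HERPUD1 and the CARE of ASNS, each in the direction of its gene and with the element in capitals.
HSPA5 (chr9:125241387-125241413, minus strand): ttcaCCAATCGGCGGCCTCCACGacgg
PDIA6 (chr2:10812849-10812875, minus strand): cggaCCAATGAGCCGCAGCCACGgctt
HERPUD1 (chr16:56932017-56932043, plus strand): ggacgccgATTGGGCCACGttgggaga
ASNS (chr7:97872459-97872486, minus strand): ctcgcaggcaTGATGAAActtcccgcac

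Averaged over the 5 miRNAs, most of the stress genes differed between mimic and antagomir cells, and the differences were small. Of the 38 genes, 17 were lower and 8 were higher in mimic cells (limma, Benjamini-Hochberg adjusted p under 0.05), while 18.6% of all 22992 genes tested were lower and 23.1% were higher. The median log2 ratio of the 38 genes was -0.04, against 0.01 for all genes. The largest means were those of PDIA3, -0.36, and DDIT3, 0.31, that is a 1.29-fold lower and a 1.24-fold higher level. Of the 6 genes with an ERSE, CALR, HSPA5, PDIA6 and XBP1 were lower, CANX was higher and HSP90B1 did not pass, and of the 6 with a CARE, HERPUD1 and SLC3A2 were lower, ASNS was higher and the other 3 did not pass. Without replicate 1 of miR-565, 19 of the 38 genes were lower and 11 were higher, beside 26.2% and 31.8% of all genes. With the slide as a random block no mean passed (smallest adjusted p, ATF6, 0.0871). The correlation within slides in that fit was 0.73. It fell to -0.204 without replicate 1 of miR-565, and 32 of the 38 means then passed. A correlation below 0 narrows the errors of means within a slide, and the share of all genes that passed in these block fits is not given. Signals are given below in the units of the array, which can be compared between cells for 1 probe but not between genes.

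**Figure D1:**
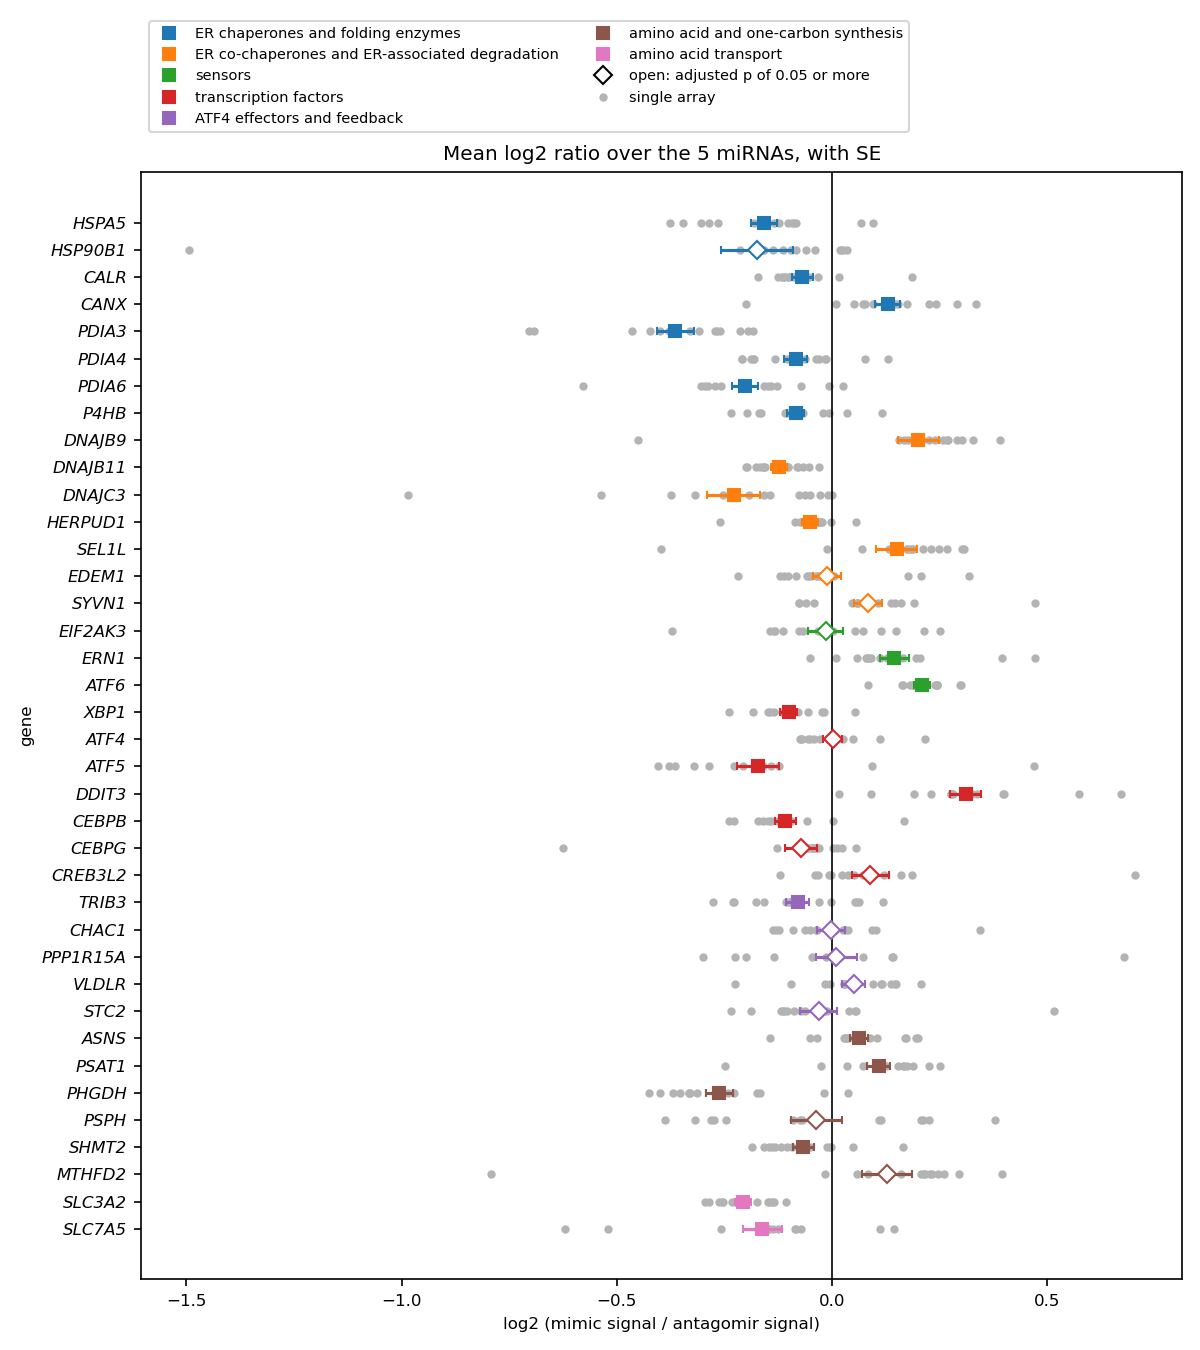
Mean log2 ratio of mimic over antagomir signal (x axis) for each of the 38 stress genes (y axis), with bars for the SE of the limma fit, colors for the role of the gene, open diamonds for an adjusted p of 0.05 or more and gray points for the 15 single arrays. Means lay between -0.36 for PDIA3 and 0.31 for DDIT3, and the lone point near -1.5 is HSP90B1 on replicate 1 of miR-565.

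Among the 8 chaperones and folding enzymes of the ER lumen and membrane, 6 were lower in mimic cells, CANX was higher and HSP90B1 did not pass. PDIA3 (ERp57), the disulfide isomerase that works with calreticulin and calnexin, changed most. Its signal at the probe at chr15:41849773-41850025 (NCBI36) was 7853 at the lowest, 10380 in the median and 15000 at the highest array in antagomir cells, against 5807, 8354 and 11620 in mimic cells. The log2 ratios were -0.69, -0.21 and -0.19 with miR-181d, -0.37, -0.40 and -0.31 with miR-565, -0.27, -0.27 and -0.42 with miR-574-3p, -0.33, -0.26 and -0.38 with miR-629*, and -0.46, -0.70 and -0.18 with miR-766. All 15 were below 0, which 2.41% of all genes showed. The mean was -0.36 (SE 0.04, adjusted p = 3.45e-05), and it was -0.37, -0.31, -0.35 and -0.45 within slides 1 to 4.

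PDIA6, another isomerase that also helps to switch off IRE1, was lower on 14 of 15 arrays, with a mean of -0.20 (SE 0.03, adjusted p = 0.000249) and -0.58 on replicate 1 of miR-565. HSPA5 (BiP), the chaperone that holds the sensors inactive, was lower on 13 arrays, with a mean of -0.16 (SE 0.03, adjusted p = 0.00148) at its brightest probe, although its other probe went the opposite way, as described below. Lower by less were P4HB, the isomerase that is also a subunit of prolyl hydroxylase (-0.08, SE 0.02, adjusted p = 0.00472), PDIA4 (-0.08, SE 0.03, adjusted p = 0.024) and the lectin chaperone CALR (-0.07, SE 0.02, adjusted p = 0.037), which passed under 12 of 27 alternative settings. CANX, the membrane-bound lectin partner of CALR, was higher on 14 of 15 arrays, with a mean of 0.13 (SE 0.03, adjusted p = 0.00431).

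HSP90B1 (GRP94), the HSP90 of the ER, stood apart on 1 array. Its signal fell from 140600 in antagomir cells to 49900 in mimic cells on replicate 1 of miR-565, a log2 ratio of -1.49, while the other 14 ratios lay between -0.21 and 0.03. The mean was -0.17 (SE 0.08, adjusted p = 0.109) over all arrays and -0.08 (adjusted p = 0.00578) without that array.

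The 7 co-chaperones and factors of ER-associated degradation were split, with 3 lower, 2 higher and 2 that did not pass. DNAJB11 (ERdj3), a secreted partner of BiP, was lower on all 15 arrays although the change was small. Its log2 ratio was -0.20 at the lowest, -0.13 in the median and -0.03 at the highest array, with a mean of -0.12 (SE 0.02, adjusted p = 0.000241). DNAJB9 (ERdj4), the partner of BiP that represses IRE1, was higher on every array but replicate 1 of miR-565, where its ratio was -0.45. The other 14 ratios lay between 0.16 and 0.39, and the mean was 0.20 (SE 0.05, adjusted p = 0.00465) with that array and 0.25 without it.

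DNAJC3 (p58IPK), an inhibitor of PERK, had a mean of -0.23 (SE 0.06, adjusted p = 0.0105), which was -0.17 without the ratio of -0.98 on replicate 1 of miR-565. Within slide 1, which held that array and those of miR-181d, its mean was -0.52, and within the other slides it was -0.11, -0.16 and -0.10. HERPUD1, which recruits the degradation complex, was lower by little (-0.05, SE 0.02, adjusted p = 0.0453) and passed under 13 of 27 alternative settings. SEL1L, the adaptor of that complex, was higher (0.15, SE 0.05, adjusted p = 0.0225). Its ligase SYVN1 (HRD1) had a mean of 0.08 (SE 0.03, adjusted p = 0.0558), and the mannosidase-like factor EDEM1 one of -0.01 (SE 0.03, adjusted p = 0.788).

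Of the 3 sensors, ATF6 was higher in mimic cells, ERN1 was higher at a probe that may not measure the known ERN1 transcript, and EIF2AK3 did not pass. ATF6, a membrane-bound transcription factor, was higher on every array. Its signal was 1388, 1939 and 2514 (lowest, median and highest) in antagomir cells and 1643, 2250 and 2667 in mimic cells. The log2 ratios were 0.30, 0.30 and 0.21 with miR-181d, 0.08, 0.19 and 0.16 with miR-565, 0.17, 0.18 and 0.19 with miR-574-3p, 0.24, 0.24 and 0.24 with miR-629*, and 0.21, 0.24 and 0.19 with miR-766. Every ratio was above 0, which 6.08% of all genes showed, and the mean was 0.21 (SE 0.02, adjusted p = 3.74e-06). Slides 1 to 4 gave means of 0.22, 0.17, 0.23 and 0.21.

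The brightest probe named ERN1 had a mean of 0.14 (SE 0.03, adjusted p = 0.00413), with 14 of 15 ratios above 0 and the 2 highest, 0.47 and 0.40, on slide 1. That probe is filed under another transcript than the dimmer ERN1 probes, whose median signals were between 12.29 and 15.52 units and whose means were -0.0038 (adjusted p = 0.976) and 0.06 (adjusted p = 0.708), the latter at the probe filed under the ERN1 reference transcript. EIF2AK3 was dim, with a median signal of 148 units in antagomir cells, and its mean was -0.01 (SE 0.04, adjusted p = 0.799).

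Among the 7 transcription factors, DDIT3 was higher in mimic cells, XBP1, ATF5 and CEBPB were lower, and ATF4, CEBPG and CREB3L2 did not pass. DDIT3 (CHOP), the factor tied to cell death under lasting stress, had a signal of 283.4, 470.4 and 557.8 (lowest, median and highest) in antagomir cells and lay between 451.5 and 642.5 in mimic cells. Its log2 ratios were 0.40, 0.28 and 0.33 with miR-181d, 0.02, 0.40 and 0.28 with miR-565, 0.23, 0.28 and 0.19 with miR-574-3p, 0.57, 0.34 and 0.67 with miR-629*, and 0.32, 0.28 and 0.09 with miR-766. All 15 were above 0, and the mean was 0.31 (SE 0.04, adjusted p = 3.02e-05). Within slides 1 to 4 it was 0.25, 0.30, 0.44 and 0.23.

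ATF4 itself, whose signal was 63740 to 115200 in antagomir cells and 60680 to 109300 in mimic cells, had ratios of both signs. They lay between -0.08 and 0.22, with a mean of 0.0015 (SE 0.02, adjusted p = 0.962). These are values of the brightest probe, and the other ATF4 probe was lower, with a mean of -0.15, as described below. ATF5, a related factor that ATF4 induces, was lower on 13 arrays (mean -0.17, SE 0.05, adjusted p = 0.0132) and stood at 0.47 on replicate 1 of miR-565. XBP1, of which these arrays measure the mRNA but not its splicing, had a mean of -0.10 (SE 0.02, adjusted p = 0.00181). CEBPB had one of -0.11 (SE 0.02, adjusted p = 0.00325). The means of CEBPG, the dimer partner of ATF4, and of CREB3L2, an ATF6-like membrane factor, were -0.07 (adjusted p = 0.134) and 0.09 (adjusted p = 0.12), and the 1 array that stood apart carried the extremes of both, -0.62 and 0.70.

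The 5 effectors and feedback genes of ATF4 moved little at their brightest probes. TRIB3, a pseudokinase that restrains ATF4, was the only one that passed (-0.08, SE 0.03, adjusted p = 0.0322), with 11 of 15 ratios below 0, but its mean was 0.0386 (adjusted p = 0.254) when the signals were corrected and normalized anew with normexp and loess. The glutathione-degrading enzyme CHAC1 had a mean of -0.0019 (SE 0.03, adjusted p = 0.969). PPP1R15A (GADD34), which lets translation resume, had one of 0.01 (SE 0.05, adjusted p = 0.881). Its ratios were -0.20, -0.30 and -0.13 with miR-181d and 0.02, 0.14 and 0.14 with miR-574-3p, while replicate 1 of miR-565 gave 0.68. The lipoprotein receptor VLDLR had a mean of 0.05 (SE 0.03, adjusted p = 0.143) and the secreted factor STC2 one of -0.03 (SE 0.04, adjusted p = 0.595). The dimmer STC2 probe was higher on all 15 arrays, with a mean of 0.29, as described below.

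**Figure D2:**
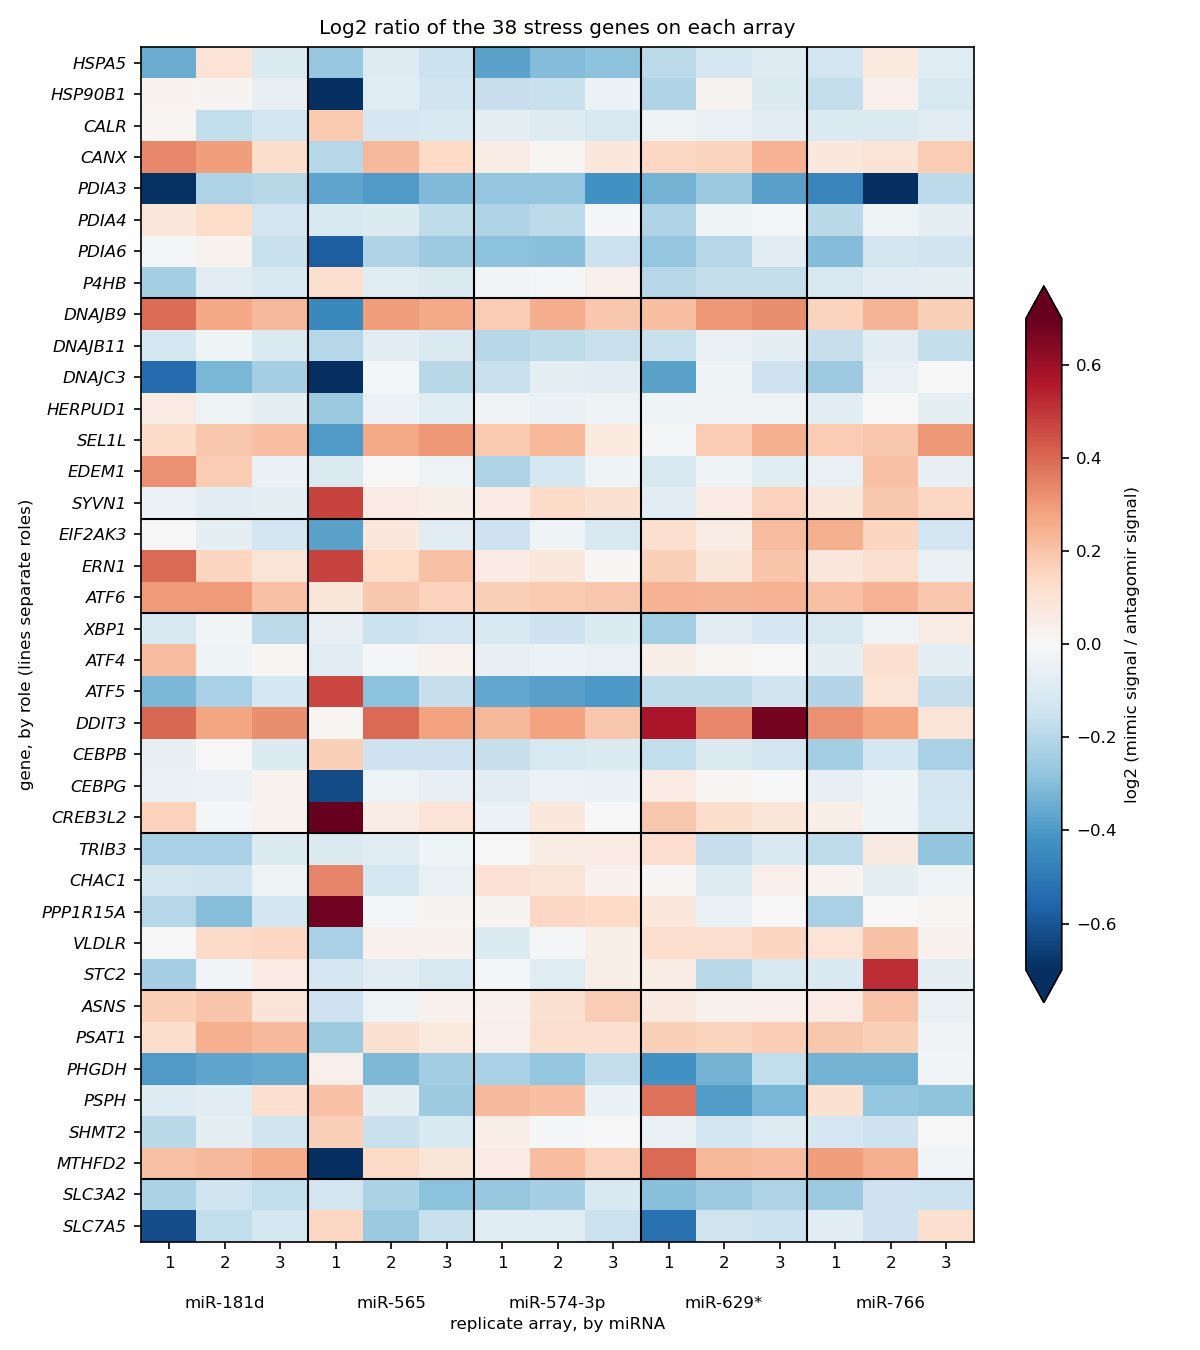
Log2 ratio of mimic over antagomir signal (color) of the 38 stress genes (rows, grouped by role) on the 15 arrays (columns, 3 replicates of each miRNA). The rows of PDIA3, SLC3A2 and DNAJB11 lie below 0 (blue) and those of ATF6 and DDIT3 above 0 (red) on every array, and the first column of miR-565 differs from the others, with HSP90B1 (-1.49) and DNAJC3 (-0.98) farthest beyond the end of the color scale.

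The 6 genes of serine, asparagine and one-carbon synthesis went in both directions. PHGDH, the first enzyme of serine synthesis, was lower on 14 of 15 arrays. Its signal was 9378, 12790 and 17000 (lowest, median and highest) in antagomir cells and 8009, 10450 and 17440 in mimic cells. The log2 ratios were -0.40, -0.37 and -0.35 with miR-181d, 0.04, -0.31 and -0.24 with miR-565, -0.23, -0.27 and -0.17 with miR-574-3p, -0.42, -0.33 and -0.17 with miR-629*, and -0.33, -0.33 and -0.02 with miR-766. The exception was replicate 1 of miR-565. The mean was -0.26 (SE 0.03, adjusted p = 5.53e-05).

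The next enzyme of that route, PSAT1, was higher (0.11, SE 0.03, adjusted p = 0.00732), and so was the asparagine synthetase ASNS (0.06, SE 0.02, adjusted p = 0.0319). The mitochondrial serine hydroxymethyltransferase SHMT2 was lower (-0.07, SE 0.02, adjusted p = 0.042). ASNS and SHMT2 each passed under 13 of 27 alternative settings, and the mean of ASNS was as low as 0.0022. PSPH, the last enzyme of serine synthesis, had ratios between -0.39 and 0.38 and a mean of -0.04 (SE 0.06, adjusted p = 0.648). MTHFD2, the mitochondrial folate enzyme, was above 0 on 13 arrays and at -0.79 on replicate 1 of miR-565. Its mean was 0.13 (SE 0.06, adjusted p = 0.0927) with that array and 0.19 (adjusted p = 3.05e-05) without it.

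Both subunits of the amino acid exchanger for large neutral amino acids were lower in mimic cells. The heavy chain SLC3A2 (CD98) had signals of 33800, 44750 and 67120 (lowest, median and highest) in antagomir cells and 28630, 38370 and 61160 in mimic cells. Its log2 ratios were -0.22, -0.14 and -0.17 with miR-181d, -0.13, -0.22 and -0.29 with miR-565, -0.26, -0.23 and -0.11 with miR-574-3p, -0.29, -0.26 and -0.22 with miR-629*, and -0.25, -0.15 and -0.15 with miR-766. No ratio was above 0, and the mean was -0.21 (SE 0.02, adjusted p = 4.77e-06), with -0.17, -0.25, -0.22 and -0.18 within slides 1 to 4. The light chain SLC7A5 (LAT1) was less even, with ratios between -0.62 and 0.14 and a mean of -0.16 (SE 0.05, adjusted p = 0.0122).

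**Figure D3:**
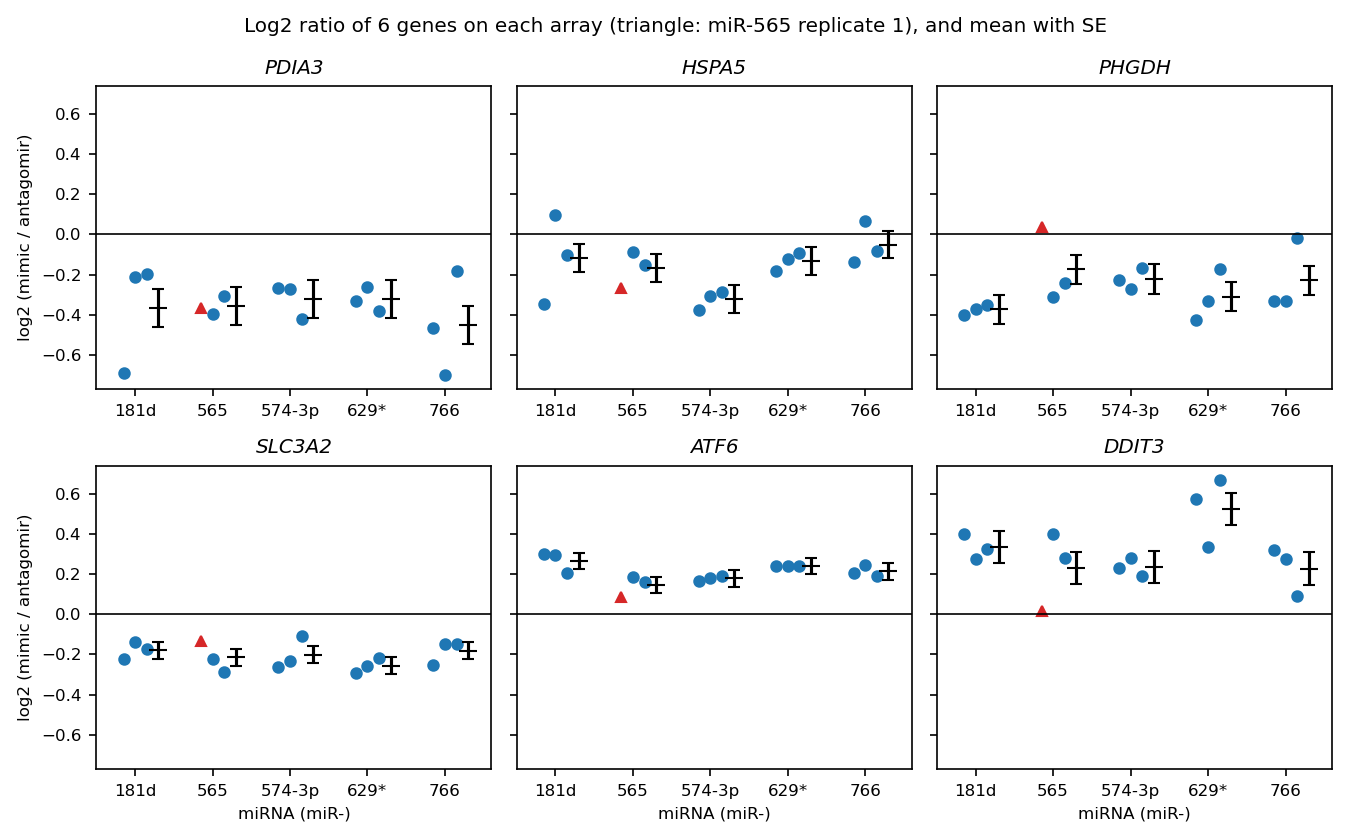
Log2 ratio of mimic over antagomir signal (y axis) of PDIA3, HSPA5, PHGDH, SLC3A2, ATF6 and DDIT3 on each array, by miRNA (x axis), with the mean and SE of the limma fit beside each set of 3 points. Red triangles mark replicate 1 of miR-565. PDIA3 and SLC3A2 lie below 0 and ATF6 and DDIT3 above 0 throughout, and HSPA5 has its lowest mean with miR-574-3p (arrays at -0.38, -0.30 and -0.29).

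With single miRNAs, 3 to 6 of the 38 genes passed. With miR-181d, PHGDH (-0.37, SE 0.07, adjusted p = 0.012), PDIA3 (-0.37, SE 0.10, adjusted p = 0.039) and SLC3A2 (-0.18, SE 0.04, adjusted p = 0.0256) were lower in mimic cells, beside 2.69% of all genes. ATF6 (0.27, SE 0.04, adjusted p = 0.00425), DDIT3 (0.33, SE 0.08, adjusted p = 0.0286) and CANX (0.25, SE 0.07, adjusted p = 0.0443) were higher, beside 3.68%. All 3 arrays had the same sign for each of these 6 genes.

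With miR-565, 3 genes were lower, PDIA6 (-0.35, SE 0.07, adjusted p = 0.0101), SLC3A2 (-0.21, SE 0.04, adjusted p = 0.0095) and PDIA3 (-0.36, SE 0.10, adjusted p = 0.0313), beside 4.64% of all genes. The probe named ERN1 (0.27, SE 0.07, adjusted p = 0.036) and ATF6 (0.14, SE 0.04, adjusted p = 0.037) were higher, beside 9.67%. The means of PDIA6 and ERN1 leaned on replicate 1, where they stood at -0.58 and 0.47, against -0.21 and -0.26, and 0.13 and 0.20, on the other 2 arrays.

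With miR-574-3p, HSPA5 (-0.32, SE 0.07, adjusted p = 0.0173), SLC3A2 (-0.20, SE 0.04, adjusted p = 0.0145) and DNAJB11 (-0.18, SE 0.04, adjusted p = 0.0273) were lower, beside 2.67% of all genes, and ATF6 (0.18, SE 0.04, adjusted p = 0.0228) was higher, beside 2.83%. The other HSPA5 probe passed in the opposite direction with miR-574-3p (0.25, adjusted p = 0.0183). That probe was also higher with miR-565 (0.23, adjusted p = 0.0186) and miR-629* (0.27, adjusted p = 0.0097). With miR-629*, PDIA3 (-0.32, SE 0.10, adjusted p = 0.0473), PHGDH (-0.31, SE 0.07, adjusted p = 0.0198), SLC3A2 (-0.26, SE 0.04, adjusted p = 0.00438) and P4HB (-0.18, SE 0.04, adjusted p = 0.0254) were lower, beside 4.51%. DDIT3 (0.53, SE 0.08, adjusted p = 0.00317) and ATF6 (0.24, SE 0.04, adjusted p = 0.00509) were higher, beside 6.23%. The ratio of DDIT3 with miR-629*, a 1.44-fold higher level, was the largest of a stress gene that passed with a single miRNA.

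With miR-766, whose 3 arrays filled a slide of their own, PDIA3 (-0.45, SE 0.10, adjusted p = 0.0296) and SLC3A2 (-0.18, SE 0.04, adjusted p = 0.0409) were lower, beside 0.744% of all genes, and ATF6 (0.21, SE 0.04, adjusted p = 0.0193) was higher, beside 1.56%. ATF6 and SLC3A2 were thus the genes that passed with each of the 5 miRNAs, although ATF6 with miR-565 passed under 12 and SLC3A2 with miR-766 under 10 of 28 alternative settings. With the slide as a random block, 3 of the 24 calls with single miRNAs passed, those of CANX, ATF6 and PHGDH with miR-181d. No stress gene reached the thresholds of the study's methods, a ratio under 0.5 with a p of at most 0.001 and a signal of at least 20. Here the p was the unadjusted one of limma, and ratios over 2 were counted as well. In either direction 0.17% of all gene and miRNA pairs reached these thresholds.

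The counts were higher when replicate 1 of miR-565 was left out. They became 13 lower and 9 higher with miR-181d (beside 12% and 16.2% of all genes), 6 and 5 with miR-565 (6.74% and 9.58%), 8 and 4 with miR-574-3p (11% and 12.1%), 11 and 10 with miR-629* (15.1% and 20.9%), and 6 and 6 with miR-766 (7.73% and 11.8%). DNAJB9, DDIT3, SEL1L and ATF6 were then higher, and PHGDH and SLC3A2 lower, with each of the 5 miRNAs. PDIA3 and ERN1 no longer passed with miR-565, where 2 arrays remained.

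The 5 miRNAs were next compared with each other, and no stress gene passed. In the F test on the ratios, 0 of the 38 genes passed (limma, smallest adjusted p = 0.657) and 0 had an unadjusted p under 0.05, while 0.539% of all genes passed. When each miRNA was set against the mean of the other miRNAs, 0 of 190 stress gene and miRNA pairs passed (smallest adjusted p = 0.292), beside 0.279% of all pairs. An unadjusted p under 0.05 was seen for 17 of these differences, but the share of all pairs at that threshold is not given. The SE of such a difference was 0.05 to 0.21 with a median of 0.08, so that a difference of the size of most ratios above could have been missed. Without replicate 1 of miR-565 the smallest adjusted p was 0.146 for the F test and 0.0513 for the pairs, again with 0 passing, beside 3.63% of all genes and 1.38% of all pairs. Fits that treat the spread between arrays in another way made calls, namely 13 genes in the F test and 14 pairs with the slide as a random block, and 3 genes and 10 pairs with array weights. The shares of all genes and of all pairs under these fits are not given, so these counts do not single out the stress genes.

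The largest of these differences was that of HSP90B1 with miR-565, -0.50 (SE 0.21, adjusted p = 0.292), which shrank to -0.03 without the array that stood apart. DDIT3 with miR-629* had the lowest unadjusted p, 0.00974, with a difference of 0.27 (SE 0.09, adjusted p = 0.981). HSPA5 with miR-574-3p differed by -0.21 (SE 0.08, adjusted p = 0.318), and by -0.22 (adjusted p = 0.0969) without that array. ATF5 with miR-574-3p, at -0.37, -0.38 and -0.40 on its 3 arrays, differed by -0.26 (SE 0.12, adjusted p = 0.448).

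Each of the 2 channels was also set against its own dye on the remaining arrays. By the brightest probes, 1 stress gene and miRNA pair passed in antagomir cells, beside 3.73% of all pairs. At further probes, TRIB3 (-0.32, adjusted p = 0.000813), SLC7A5 (-0.33, adjusted p = 0.00368), CANX (0.18, adjusted p = 0.0156) and P4HB (-0.18, adjusted p = 0.0398) passed with miR-574-3p. CANX (-0.23, adjusted p = 0.00947) and SYVN1 (-0.26, adjusted p = 0.0272) passed with miR-766, and SLC7A5 (0.27, adjusted p = 0.0466) with miR-181d. The share of further probes of all genes that passed is not given, so these calls do not single out the stress genes. The pair of the brightest probes was HSPA5 with miR-574-3p, with signals of 4665, 4961 and 4923 in the antagomir cells of that miRNA. The antagomir cells of the other miRNAs gave 2736 to 5516, so that the groups overlapped. On the normalized log2 scale the difference was 0.25 (SE 0.07, adjusted p = 0.0241), and it no longer passed when any 1 of the 3 miR-574-3p arrays was left out. Without replicate 1 of miR-565 it was again the only pair of brightest probes that passed in antagomir cells (adjusted p = 0.0406), beside 2.73% of all pairs. In mimic cells 0 then passed (limma, smallest adjusted p = 0.358), beside 0.0957%. With the slide as a random block 32 pairs passed in antagomir cells and 5 in mimic cells, without a share of all pairs to set beside them. In mimic cells HSPA5 differed by 0.04 with miR-574-3p (SE 0.06, adjusted p = 0.986). By the brightest probes 0 pairs passed there (limma, smallest adjusted p = 0.243), beside 0.0592% of all pairs. In that channel 13 pairs had an unadjusted p under 0.05, but the share of all pairs at that threshold is not given. DDIT3 stood at 431.6, 418.2 and 283.4 in the antagomir cells of miR-629*, on arrays of which the last was also the dimmest over all probes (median signal 59.2 units), and after normalization the difference was -0.18 (SE 0.04, adjusted p = 0.0564).

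**Figure D4:**
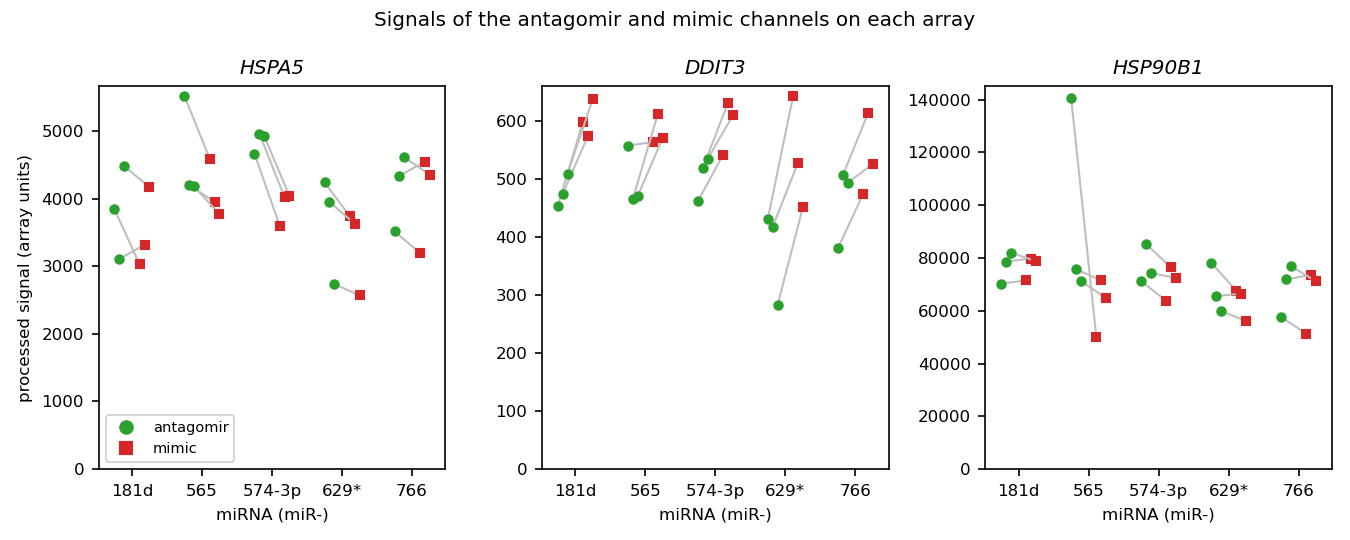
Processed signal (y axis, array units, from 0) of HSPA5, DDIT3 and HSP90B1 in antagomir cells (green circles) and mimic cells (red squares), joined for each array, by miRNA (x axis). DDIT3 rises from antagomir to mimic cells on all 15 arrays, HSPA5 falls on 13, and HSP90B1 in antagomir cells reaches 140600 on replicate 1 of miR-565 only.

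Probes of the same gene did not always move together. Of the 38 genes, 20 had more than 1 tested probe, and of their 23 further probes 14 had a mean of the same sign as the brightest probe and 9 of the opposite sign. Over all genes, 40% of 8324 further probes had the opposite sign. Both probes passed in the same direction for P4HB, CEBPB, SHMT2, SLC3A2, SEL1L and TRIB3. For PDIA3 only 1 further probe, which overlaps the brightest, passed in the same direction, and the remaining probe did not pass. The share of further probes of all genes that passed in this way is not given. Without replicate 1 of miR-565, 13 of the 23 further probes had the same sign and 10 the opposite. HSP90B1 and CANX then joined the genes with both probes passing in the same direction. The second SLC3A2 probe (chr11:62409265-62409324) was lower on all 15 arrays with a mean of -0.34 (SE 0.03, adjusted p = 3.55e-06).

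HSPA5 was the only stress gene with probes that passed in opposite directions, as did 5.36% of further probes of all genes. The brightest probe, at chr9:127039245-127040290 (NCBI36), had the mean of -0.16 given above. The other, at chr9:127036970-127037029, was higher in mimic cells on all 15 arrays, with ratios of 0.08 to 0.38 and a mean of 0.22 (SE 0.02, adjusted p = 2.05e-05). With miR-574-3p it stood at 0.23, 0.30 and 0.21, and its antagomir channel differed from the other miRNAs by -0.02 (SE 0.03, adjusted p = 0.779). The direction of HSPA5 therefore depended on the probe, and with the mean of its probes it was 0.0301 (adjusted p = 0.281).

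For PDIA3, the 2 brighter probes overlap on the genome (chr15:41849773-41850025 and chr15:41849792-41850047) and both were lower on all 15 arrays, at means of -0.36 and -0.31. The other PDIA3 probe, at chr15:41850693-41851050, had a mean of 0.0080 (SE 0.04, adjusted p = 0.903). ATF4, level at its brightest probe, was lower at its other probe (-0.15, SE 0.02, adjusted p = 0.000244). With single miRNAs that probe passed with miR-565 (-0.17, adjusted p = 0.0417) and miR-629* (-0.17, adjusted p = 0.0484) but not with the others. STC2 (0.29, SE 0.03, adjusted p = 1.82e-05) and EDEM1 (0.23, SE 0.04, adjusted p = 0.00131) were higher on all 15 arrays at their dimmer probes. HSP90B1 (-0.28, adjusted p = 0.0107) and PSPH (-0.34, adjusted p = 0.00129) were lower at a dimmer probe while their brightest probe did not pass. The second ATF6 probe was dim, with a median signal of 57.99 units in antagomir cells, and had a mean of -0.03 (SE 0.05, adjusted p = 0.691). What sets these probes apart was not tested.

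**Figure D5:**
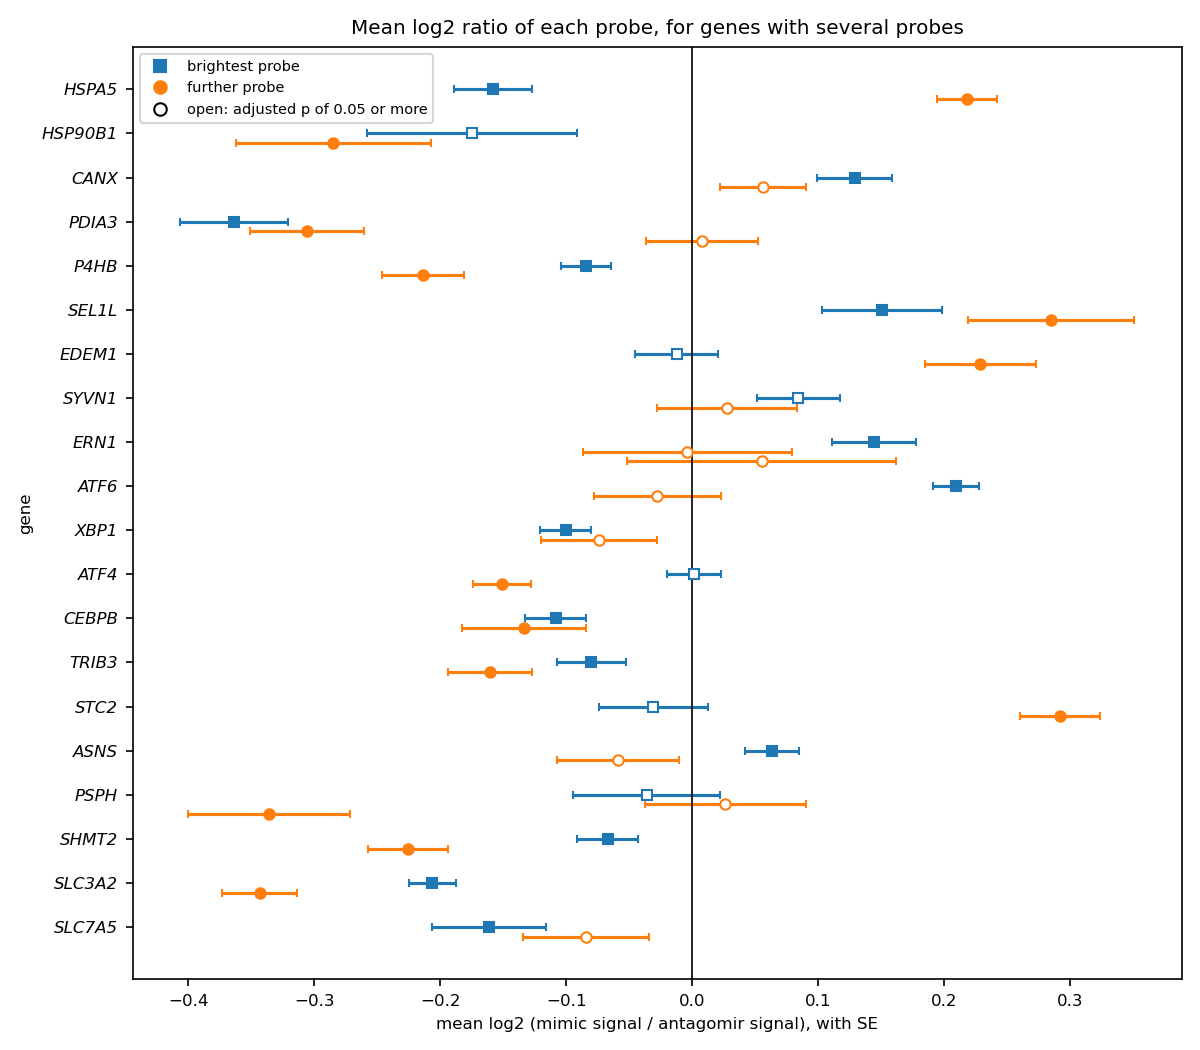
Mean log2 ratio of mimic over antagomir signal over the 5 miRNAs (x axis) of each probe of the 20 stress genes with several tested probes (y axis), with bars for the SE. Blue squares are the brightest probes, orange circles the further probes, and open symbols have an adjusted p of 0.05 or more. The probes of HSPA5 lie on opposite sides of 0, at -0.16 and 0.22.

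Other genes of the same pathways were taken from a list of 92, of which 86 were tested. On the mean over the 5 miRNAs, 20 of the 86 were lower and 23 higher in mimic cells, with a median log2 ratio of -0.01. These are shares of 23.3% and 26.7%, beside 18.6% and 23.1% of all genes. Without replicate 1 of miR-565, 29 were lower and 33 higher, 33.7% and 38.4%, beside 26.2% and 31.8%. With miR-181d 7 were lower (8.14%, beside 2.69% of all genes) and 7 higher (8.14%, beside 3.68%). With miR-565 the counts were 5 lower (5.81%, beside 4.64%) and 9 higher (10.5%, beside 9.67%), and with miR-574-3p 3 lower (3.49%, beside 2.67%) and 2 higher (2.33%, beside 2.83%). With miR-629* 6 were lower (6.98%, beside 4.51%) and 6 higher (6.98%, beside 6.23%), and with miR-766 2 were lower (2.33%, beside 0.744%) and 2 higher (2.33%, beside 1.56%). Without that array the lower and higher counts were 18 and 23 with miR-181d (20.9% and 26.7%, beside 12% and 16.2% of all genes). They were 13 and 14 with miR-565 (15.1% and 16.3%, beside 6.74% and 9.58%). With miR-574-3p they were 18 and 14 (20.9% and 16.3%, beside 11% and 12.1%). With miR-629* they were 14 and 24 (16.3% and 27.9%, beside 15.1% and 20.9%). With miR-766 they were 12 and 18 (14% and 20.9%, beside 7.73% and 11.8%). In the F test 0 differed among the miRNAs with that array and 1 did without it, ARMET (adjusted p = 0.0211), a secreted ER stress protein that was named after its value was seen.

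Among these other genes, those with the lowest p values for each miRNA are named, so they were picked by their values in these data. Further genes that passed are not named. The glutamine transporter SLC1A5 was lower with each of the 5 miRNAs, most with miR-181d (-0.78, SE 0.11, adjusted p = 0.00316) and miR-629* (-0.71, SE 0.11, adjusted p = 0.00384) and least with miR-565 (-0.46, SE 0.11, adjusted p = 0.0244). ATF3, a stress factor that ATF4 and CHOP induce, was higher with miR-565 (0.56, SE 0.08, adjusted p = 0.0028) and with miR-629* (0.47, SE 0.08, adjusted p = 0.00625), and also passed with miR-181d (0.36, adjusted p = 0.0255) and miR-574-3p (0.38, adjusted p = 0.0197). SRP19, a protein of the signal recognition particle, was higher with miR-181d (0.43, SE 0.09, adjusted p = 0.0133) and miR-629* (0.43, SE 0.09, adjusted p = 0.0103), and DERL3, a degradation factor, with miR-565 (0.64, SE 0.13, adjusted p = 0.0106). The mean of DERL3 over the 5 miRNAs was 0.17 (SE 0.06, adjusted p = 0.0284), and its value without replicate 1 of miR-565 is not given. With miR-574-3p the chaperone ERP29 (-0.30, SE 0.06, adjusted p = 0.0107) and the translocon protein SSR2 (-0.17, SE 0.04, adjusted p = 0.0128) were lower. ERP29 also passed with miR-181d (-0.27, adjusted p = 0.0214), and SSR2 with miR-565 (-0.12, adjusted p = 0.0417) and miR-629* (-0.16, adjusted p = 0.0149). The eIF2 kinase EIF2AK1 was higher with miR-766 (0.21, SE 0.05, adjusted p = 0.0481) and miR-574-3p (0.20, SE 0.05, adjusted p = 0.0312).

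In these bulk cultures, a change of mRNA per cell and a change in the share of living or dividing cells cannot be told apart. The arrays measured mRNA only, so that splicing of XBP1, cleavage of ATF6 and phosphorylation of eIF2 were not analysed here.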

How the data were processed

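RNA of A549 cells was hybridized by the authors on 15 dual-color Agilent whole genome arrays, and the files are their scanner output as read by Feature Extraction 9.5.3.1. Each holds 2 kinds of deposited intensity, namely processed signals, corrected for background and detrended by that software and normalized between dyes by LOWESS, and mean signals with their backgrounds, which are not normalized. The deposited log10 ratio and the values of the series table were equal, with a largest difference of 0. Probe positions are those of the files (NCBI36).

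From the deposited processed signals, log2 ratios of Cy5 to Cy3 were formed in R 4.3.3, without the 1639 control spots of each array and 2296 spots flagged as outliers. No spot was saturated. Probes that were well above background on 3 or more arrays, in 1 channel or both, entered a single fit in limma 3.58.1 (1 coefficient per miRNA, variance trend on intensity), with Benjamini-Hochberg adjustment over 31330 probes. Tests were 2-sided. Contrasts were the ratio of each miRNA, the mean of the 5, each miRNA against the others, and an F test. Channels were quantile normalized within the dye. Each gene is given by its brightest probe, and full statistics by rule for genes that passed, otherwise as values. The procedure was tested on simulated data. The genes, the pathway list and the markers were chosen with earlier results of these data known. Promoters and miRNAs are from RefSeq tables (GRCh38.p14). Alternatives were normexp with an offset of 50 and loess, median centring, median scaling within the dye, no intensity trend, replicate and slide blocks, other filters, the mean of a gene's probes, outlier spots kept, 3 arrays alone, the thresholds of the methods, and each array left out. Array weights, and the slide block on 14 arrays, were added after seeing the data.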

Additional observations from a re-analysis of the deposited data

Results flagged for a closer look

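For 6 stress genes, the 3 arrays of a miRNA all had a log2 ratio above 0 and the 3 arrays of another all had one below 0. The difference itself was not tested for these pairs of miRNAs, which were the widest such pair of each gene. The miRNAs of each pair were also largely on different slides, and the share of the slide in these gaps was not tested. The share of all genes with such a split is not given, so the 6 cannot be read as a result about the stress genes. None of the 6 passed the F test among the miRNAs. SYVN1 was 0.25 higher with miR-565 (0.19) than with miR-181d (-0.06), a gap that includes the array that stood apart, at 0.47. PPP1R15A was 0.31 higher with miR-574-3p (0.10) than with miR-181d (-0.21), and CHAC1 0.18 higher with miR-574-3p (0.07) than with miR-181d (-0.10). CEBPG was 0.26 higher with miR-629* (0.02) than with miR-565 (-0.24), where replicate 1 gave -0.62. EIF2AK3 was 0.22 higher with miR-629* (0.13) than with miR-574-3p (-0.10). ATF4 was 0.07 higher with miR-629* (0.02) than with miR-574-3p (-0.05).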

How the results depend on the processing

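The 24 single ratios and the 25 means of stress genes that passed were recomputed under each alternative. Of 672 recomputed single ratios 507 passed in the same direction, 165 did not pass and 0 reversed. Of 675 means 576 passed in the same direction, 97 did not pass and 2 reversed, HSPA5 to 0.0301 with the mean of its probes and TRIB3 to 0.0386 with normexp and loess. The cause was not tested. Precision was limited by the 3 arrays of each miRNA.

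The counts of genes that passed were, as reported, 6 for miR-181d, 5 for miR-565, 4 for miR-574-3p, 6 for miR-629* and 3 for miR-766. With normexp and loess miR-574-3p gave 7, and with median centring miR-565 gave 8. Without the intensity trend miR-181d gave 3, miR-574-3p 2 and miR-766 1. When a gene's probes were averaged, miR-565 gave 2, miR-574-3p 2 and miR-766 0. Fitted on its own 3 arrays, miR-181d gave 10, miR-565 0, miR-574-3p 15 and miR-629* 15. Array weights, added after seeing the data, gave 22, 23, 20, 21 and 12 for the 5 miRNAs in the order above. The thresholds of the methods gave 0 for each. With the slide as a block miR-181d gave 4 and each other miRNA 0, the mean over the miRNAs 0, the F test 13, pairs of ratios 14, pairs of the antagomir channel 32 and pairs of the mimic channel 5. The correlation within slides was 0.73 for ratios, -0.226 for the antagomir channel and 0.727 for the mimic channel. The slide block on the 14 arrays without replicate 1 of miR-565, also added after seeing the data, gave 26, 19, 18, 26 and 20 for the 5 miRNAs, 32 for the mean, 12 for the F test and 17 for pairs of ratios, at a correlation of -0.204. A correlation below 0 narrows the errors of means within a slide. No share of all genes is given beside the counts of these alternative fits, so they do not describe the stress genes in particular. With array weights the F test gave 3, pairs of ratios 10 and pairs of the antagomir channel 9. Pairs of the antagomir channel, 1 as reported, were 5 with median scaling, 2 with the strict filter and 5 when a gene's probes were averaged.

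With 1 array left out, the counts were 0 to 22 for miR-181d, 3 to 11 for miR-565, 0 to 12 for miR-574-3p, 2 to 21 for miR-629*, 0 to 12 for miR-766, 19 to 30 for the mean, 0 to 3 for pairs of the antagomir channel, and 0 to 0 for the F test, pairs of ratios and pairs of the mimic channel. Each highest count of a single miRNA and of the mean was the one without replicate 1 of miR-565. The lowest of miR-181d, miR-574-3p and miR-766 came without their own replicate 1 or 2, and that of miR-629* without its replicate 3.

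Replicate numbers did not clearly pair the arrays. The residuals of 30 pairs with the same number correlated at -0.40 to 0.54 (median 0.06), and 13 correlations were over 0.1. Those of 60 pairs with other numbers correlated at -0.61 to 0.52 (median -0.05), and 17 were over 0.1. The ranges overlapped, although the median was slightly higher for the same number. With the replicate number as a block, miR-181d gave 3 and pairs of the antagomir channel 2, and no other count moved by more than 1.5 times.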
